A study of Mus musculus with 50 samples.

Results

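Transcripts of 8 genes that bind, sense or carry zinc were followed in skeletal muscle and fat of mice in which a group of brainstem neurons had been activated. The genes were the metallothioneins Mt1 and Mt2, the metal-sensing transcription factor Mtf1, the zinc exporters Slc30a1 (ZnT1) and Slc30a10 (ZnT10), and the importers Slc39a1 (ZIP1), Slc39a10 (ZIP10) and Slc39a14 (ZIP14). They were chosen by symbol, with earlier results from the same libraries known, so that the differences between genotypes given for them are descriptions and carry no p-value. All 8 were found in the count tables of all 3 sample sets. A filter on low counts kept 6 of the 8 among the 8070 genes tested in quadriceps, 7 of 8 among 11087 in fat at 1 h and 7 of 8 among 14359 in fat at 6 h. Slc30a10 failed it everywhere and Slc39a10 failed it in quadriceps.

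The mice were hM3DGq males, which carry a designer receptor that drives neuronal firing when bound by clozapine-N-oxide (CNO), and were Gfral Cre-positive or Cre-negative. Gfral encodes the receptor for the stress hormone GDF15 and is known from neurons of the area postrema and the nucleus of the solitary tract in the brainstem. Libraries were labelled TG or WT, which is taken here to mean Cre-positive and Cre-negative. Both genotypes received CNO at 1 mg/kg, and no group without CNO was analysed here. Age and strain background are not given in the sources used here. Quadriceps came from mice under a glucose clamp (10 WT and 10 TG libraries), and perigonadal white adipose tissue (pgWAT) was taken 1 h (9 and 9) or 6 h (6 and 6) after CNO, for 50 libraries in all. No time from CNO to sampling is known here for the clamped quadriceps groups. The library titled as replicate 10 of clamped TG quadriceps has a treatment label that reads 1 h after CNO, and it was kept in the group of its title. The labels do not state that each library is a separate mouse, so the spread below is that between libraries. The design asked how activating these neurons changes transcripts in a tissue with lowered glucose uptake (quadriceps) and one with raised uptake (pgWAT).

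Metallothioneins are small cysteine-rich proteins that hold zinc and copper in the cytosol. MTF-1, the product of Mtf1, binds metal response elements in DNA when free zinc rises and turns on metallothionein genes and Slc30a1, whose product carries zinc out of the cell. Glucocorticoids and inflammatory cytokines are also known to raise metallothionein transcripts, and zinc importers of the Slc39 family, Slc39a14 above all, are known to respond to cytokines in liver and fat.

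Mt2 and Mt1 lie next to each other on the plus strand of chromosome 8 in GRCm38, Mt2 at chr8:94172664-94173568 and Mt1 at chr8:94179082-94180327, with 5514 bases between them. Their promoter windows are shown with that of Slc30a1 (gene at chr1:191906767-191913247, plus strand) because these are the genes through which MTF-1 is best known to act. The sequences are from RefSeq on GRCm38.p6 and run from 250 bases before to 50 bases after the annotated start. Capitals mark each match to the core of the metal response element, searched as TGCACNC or TGCGCNC on both strands.
Mt1 promoter, chr8:94178839-94179138, plus strand: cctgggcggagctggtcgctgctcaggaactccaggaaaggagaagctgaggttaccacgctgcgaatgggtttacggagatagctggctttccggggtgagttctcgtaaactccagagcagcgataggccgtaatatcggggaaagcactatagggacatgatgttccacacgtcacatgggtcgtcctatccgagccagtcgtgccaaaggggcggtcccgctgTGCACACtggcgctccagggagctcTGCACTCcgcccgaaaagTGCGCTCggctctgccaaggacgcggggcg
Mt2 promoter, chr8:94172368-94172667, plus strand: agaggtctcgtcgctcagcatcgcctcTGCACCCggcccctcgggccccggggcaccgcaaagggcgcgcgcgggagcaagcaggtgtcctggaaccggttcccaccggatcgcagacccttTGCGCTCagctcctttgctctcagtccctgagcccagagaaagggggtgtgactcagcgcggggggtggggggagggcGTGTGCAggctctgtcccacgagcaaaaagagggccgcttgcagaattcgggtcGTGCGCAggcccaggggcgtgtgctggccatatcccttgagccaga
Slc30a1 promoter, chr1:191906531-191906830, plus strand: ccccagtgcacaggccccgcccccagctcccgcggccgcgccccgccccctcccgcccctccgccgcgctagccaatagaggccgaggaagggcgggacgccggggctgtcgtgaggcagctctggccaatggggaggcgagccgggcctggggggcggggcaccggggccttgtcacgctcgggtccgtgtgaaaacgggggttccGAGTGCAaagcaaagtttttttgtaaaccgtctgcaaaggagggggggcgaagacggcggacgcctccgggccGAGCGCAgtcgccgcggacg
Mt1 held 3 matches, beginning 23 bases before and 2 and 20 bases after the first base of the transcript region. Mt2 held 4 matches, beginning 223, 128 and 50 bases before it and 4 bases after it. Places are counted from the RefSeq start, which can differ from the GENCODE gene start. For Mt2 it lies before the GENCODE start of chr8:94172664, and the window ends at chr8:94172667. Slc30a1 held 2 matches, both on the minus strand. The window of Slc30a10 held 3, of which a pair overlapped on opposite strands and can be read as a single position. Neither Mtf1, nor Slc39a1, nor either of the windows listed for Slc39a10 held one in these bases. The windows of Slc39a10 (chr1:46925727-46926026 and chr1:46853569-46853868) do not lie at its GENCODE start, chr1:46892852 on the minus strand. Of 32851 promoter windows of the same length, 25.7% held at least 1 match, 1.97% at least 3 and 0.517% at least 4. The half-site of the glucocorticoid response element, searched as TGTTCT on both strands, was found among these genes only in the window of Mtf1, once, against 18.97% of all windows. The search covered only the 300 bases of each window, so elements farther from the start could not be found. That a gene lacks such an element is therefore not read from it. A match is a run of letters and not a measured binding site. Slc39a14 is named only.

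Each library was a QuantSeq count table, in which reads from near the 3′ ends of transcripts are counted per gene. Quadriceps and 1 h fat libraries, prepared with a kit that adds molecular identifiers, held 959980 to 2613672 and 976610 to 4852560 gene counts, and the 6 h fat libraries, made with the standard kit, held 9150496 to 12883462. A count of 3 corresponded to 1.15 to 3.13 CPM (the usual count of a gene scaled to its library total) in quadriceps, 0.618 to 3.07 at 1 h and 0.233 to 0.328 at 6 h, a limit that covers counting error only. Summed adipocyte markers (Adipoq, Plin1, Fabp4, Lep, Cidec and Plin4) reached 8693 to 21373 CPM in 1 h fat and 29455 to 37169 CPM in 6 h fat. Summed muscle fibre markers (Acta1, Ckm, Mylpf, Tnnt3, Actn3 and Myh4) reached 32018 to 56216 CPM in quadriceps. In 1 h fat, 9 libraries held more than 300 CPM of liver transcripts or more than 100 CPM of the duct epithelium genes Lrp2 and Cldn10, and the highest sum of liver transcripts was 9428 CPM in TG library 3. In 6 h fat, TG library 2 held 1458 CPM of liver transcripts against 42.3 to 80.7 CPM in the WT libraries. In quadriceps, WT library 2 held 251 CPM of liver transcripts and 2808 CPM of the inducible heat shock genes Hspa1a, Hspa1b and Dnajb1. Summed neutrophil markers there reached 379 CPM in TG library 5 and 94.9 CPM in TG library 2. The next TG value was 26.0 CPM, and WT libraries held 1.88 to 18.0 CPM. The part of these neutrophil transcripts in the metallothionein values was not tested. CPM were scaled within each set, so levels are compared within a set only, apart from one joint fit given below. In bulk tissue, fewer cells of a type and less RNA per cell cannot be told apart.

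Metallothionein transcripts were higher on average in TG than in WT libraries in each set, with the largest fitted difference in fat 6 h after CNO. Time, library kit and depth differ together between 1 h and 6 h fat, so they cannot be told apart in this ranking. In 6 h fat, Mt1 stood at 598, 820 and 1332 CPM in the lowest, median and highest WT library and at 3509, 3784 and 6136 CPM in TG. All 6 TG libraries lay above all 6 WT libraries. The means were 922 ± 333 CPM (SD, n = 6) and 4274 ± 1039 CPM (SD, n = 6), a fitted log2 difference of 2.21 (SE 0.25), or 4.63-fold. Mt2 stood at 427, 897 and 1752 CPM in WT and at 4114, 4960 and 7832 CPM in TG, again with no overlap. Its means were 989 ± 506 CPM (SD, n = 6) and 5496 ± 1356 CPM (SD, n = 6), a log2 difference of 2.47 (SE 0.35), or 5.55-fold. Together the pair took 0.197 ± 0.0879% (SD, n = 6) of all gene counts in WT and 0.954 ± 0.229% (SD, n = 6) in TG. TG library 5 was the highest for both genes, and WT libraries 1 and 6 were the highest of their group for both. Without TG libraries 2 and 5, left out after their values had been seen, the differences were 2.08 for Mt1 and 2.35 for Mt2.

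In quadriceps the fitted difference of Mt2 passed the threshold and that of Mt1 did not. Mt2 stood at 195, 386 and 844 CPM in WT and at 805, 1178 and 1572 CPM in TG. The lowest TG library lay just under the highest WT library, and the other 9 TG libraries lay above every WT library. The means were 483 ± 225 CPM (SD, n = 10) and 1167 ± 237 CPM (SD, n = 10), a log2 difference of 1.27 (SE 0.23), or 2.41-fold. Mt1 stood at 222, 410 and 928 CPM in WT and at 522, 784 and 1027 CPM in TG. All 10 TG libraries were above the WT mean, but only 2 were above the highest WT library. Its means were 481 ± 210 CPM (SD, n = 10) and 791 ± 151 CPM (SD, n = 10), a log2 difference of 0.72 (SE 0.21) that missed the threshold of 0.05 on the adjusted p. Mt1 was called with DESeq2 (0.72) and without WT library 1 (0.88). WT library 2, which carried the liver and heat shock transcripts, had 732 CPM of Mt1 and 719 CPM of Mt2, and WT library 10, with 1573 CPM of the heat shock genes, had 494 and 507 CPM. With WT libraries 2 and 10 both left out, the log2 difference of Mt1 was 0.82 and missed the threshold. In that fit 2 of the 8 genes were called, as with all libraries. The part of these transcripts in the WT levels was not tested.

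In fat 1 h after CNO the ranges of the genotypes overlapped for both genes. Mt1 stood at 183, 333 and 552 CPM in WT and at 331, 414 and 609 CPM in TG, with a log2 difference of 0.34 (SE 0.17). Mt2 stood at 129, 337 and 626 CPM in WT and at 348, 425 and 689 CPM in TG, with a log2 difference of 0.40 (SE 0.26). The low end of the range was missing in TG: 4 WT libraries for Mt1 and 5 for Mt2 lay below every TG library, while 1 TG library lay above every WT library for each. TG library 3, with the most liver transcripts, had 414 CPM of Mt1 and 425 CPM of Mt2, both at the TG median. Without the 9 libraries that carried transcripts of other organs, which leaves 3 WT and 6 TG libraries, the differences were 0.51 for both genes, and neither passed the threshold.

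**Figure D1:**
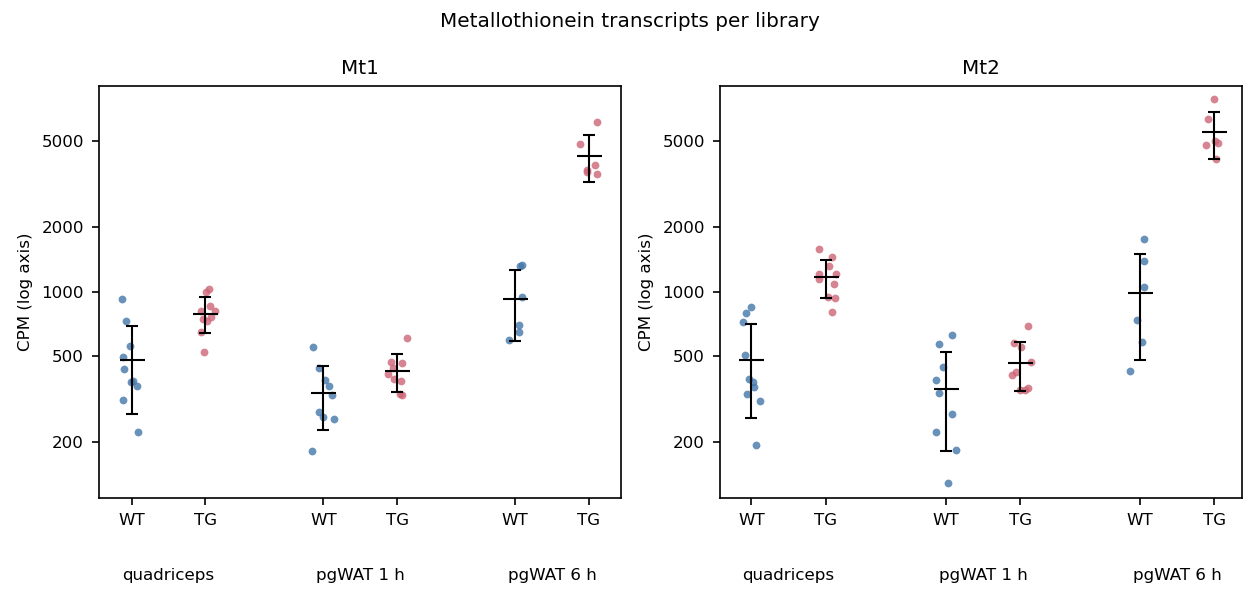
Mt1 and Mt2 in CPM on a log axis, 1 point per library, with the mean and SD of each group, WT in blue and TG in red. In fat at 6 h the TG libraries (3509 to 6136 CPM of Mt1) lie above all WT libraries, in quadriceps the groups overlap for Mt1 and nearly separate for Mt2, and at 1 h they overlap.

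Mt1 and Mt2 varied together from library to library within every group, a comparison in which genotype plays no part. Pearson's r of log2 CPM was 0.95 in WT quadriceps (permutation p = 2.00e-05, adjusted over the 6 groups 1.20e-04, Spearman's rho 0.95) and 0.89 in TG quadriceps (permutation p = 6.90e-04, adjusted 0.00103, rho 0.87). In 1 h fat it was 0.96 in WT (exact permutation p = 8.54e-05, adjusted 2.56e-04, rho 0.97) and 0.92 in TG (exact permutation p = 4.71e-04, adjusted 9.42e-04, rho 0.87). In 6 h fat it was 0.97 in WT (exact permutation p = 0.00417, adjusted 0.00417, rho 0.94) and 0.98 in TG (exact permutation p = 0.00139, adjusted 0.00167, rho 1). The permutation p of rho, two-sided like those of r, was 9.00e-05 and 0.00238 in WT and TG quadriceps, 1.65e-04 and 0.00451 at 1 h, and 0.0167 and 0.00278 at 6 h, with adjusted values from 4.96e-04 to 0.0167. Without the 2 libraries farthest from the median of Mt1, r stayed between 0.72 in TG quadriceps and 0.96 in WT fat at 1 h. The 2 genes are similar copies, and whether reads of one could be counted for the other was not tested.

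The ratio of Mt2 to Mt1 counts within a library is a comparison of counts, not of RNA per length, and is followed here only across groups. In quadriceps it ran from 0.868 through a median of 0.982 to 1.43 in WT and from 1.23 through 1.51 to 1.67 in TG. It was above 1 in 2 of 10 WT libraries and in 10 of 10 TG libraries. At 6 h it ran from 0.714 through 1.05 to 1.34 in WT and from 1.17 through 1.30 to 1.34 in TG. At 1 h the ranges were 0.708 to 1.41 in WT and 0.901 to 1.30 in TG, with medians of 0.979 and 1.05. The ratio rests on the same counts as the genotype differences above, and it was not tested.

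**Figure D2:**
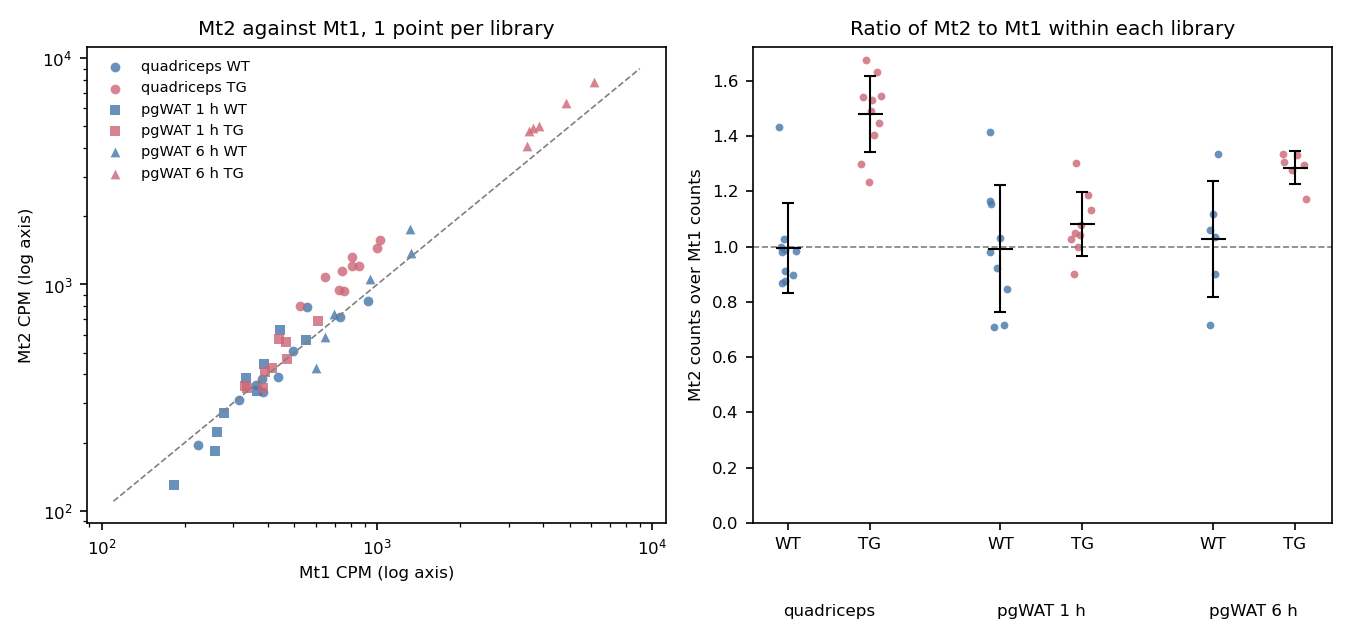
Left, Mt2 against Mt1 in CPM on log axes, 1 point per library, with a dashed line at equal values; right, the ratio of Mt2 to Mt1 counts per library with the mean and SD of each group. The points run along a line within every group, and the TG ratios in quadriceps (1.23 to 1.67) and in 6 h fat (1.17 to 1.34) are all above 1.

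Mtf1, the metal sensor, had fitted genotype differences no larger than about their SE in each set. In quadriceps it stood at 22.9, 27.8 and 37.3 CPM in WT and at 16.2, 28.5 and 36.9 CPM in TG, a log2 difference of -0.07 (SE 0.13). In fat the difference was -0.14 (SE 0.15) at 1 h, with WT libraries from 24.9 to 45.6 CPM and TG from 18.6 to 36.4 CPM, and -0.43 without the 9 libraries that carried transcripts of other organs, again short of the threshold. At 6 h it was 0.03 (SE 0.09), with WT from 16.6 to 21.2 CPM and TG from 17.5 to 23.8 CPM. None of the 3 passed the threshold. Mtf1 (chr4:124802104-124849800, plus strand) overlaps at its 3′ end the gene 1110065P20Rik on the opposite strand, which had 4109 counts over the 6 h libraries against 2584 for Mtf1. The strand setting of the counting is not given in the sources used here, so reads of the overlapping ends may have gone to either gene.

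Slc30a1, the exporter of the plasma membrane, was higher in TG quadriceps. It stood at 22.9, 32.0 and 45.1 CPM in WT and at 34.7, 47.2 and 56.4 CPM in TG, and 8 of the 10 TG libraries lay above every WT library. The means were 32.4 ± 6.73 CPM (SD, n = 10) and 48.6 ± 6.99 CPM (SD, n = 10), a log2 difference of 0.59 (SE 0.12). In fat the ranges overlapped at both times. At 1 h Slc30a1 stood at 58.2, 69.7 and 95.9 CPM in WT and at 54.1, 61.8 and 77.2 CPM in TG, a log2 difference of -0.15 (SE 0.10). In the 6 h set, where the metallothioneins differed most, it stood at 21.3, 28.0 and 32.1 CPM in WT and at 26.8, 32.2 and 38.8 CPM in TG, a log2 difference of 0.23 (SE 0.11) that missed the threshold. Whether the difference in quadriceps was unlike that in fat was not tested, since the gene was chosen on these contrasts.

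Slc30a10, at chr1:185454848-185468762 on the plus strand, codes for an exporter known above all for manganese and was all but missing. It had 0 counts in the 20 quadriceps libraries, where 3 counts over the set correspond to 0.120 CPM. At 1 h it had 9 counts in the WT libraries and 34 in the TG libraries, all 34 in TG library 3 (18.2 CPM), the library with the most liver transcripts. At 6 h it had 0 counts in WT and 5 in TG, all 5 in TG library 2, which held the most liver transcripts of that set. No fold was computed for it.

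The importer Slc39a1 (chr3:90248172-90253612, plus strand) differed little between the genotypes, and no difference passed the threshold. Its log2 difference was 0.06 (SE 0.12) in quadriceps, 0.05 (SE 0.14) in 1 h fat and 0.06 (SE 0.07) in 6 h fat. In quadriceps it stood at 33.7, 54.6 and 63.3 CPM in WT and at 39.2, 54.9 and 74.3 CPM in TG. At 1 h it stood at 93.4, 119 and 153 CPM in WT and at 79.4, 122 and 215 CPM in TG, and at 6 h at 85.7, 96.1 and 107 CPM and at 93.2, 97.6 and 113 CPM. The ranges overlapped in every set, and the value of 215 CPM in TG library 7 at 1 h stood apart from the rest of its group.

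Slc39a10, at chr1:46807544-46892852 on the minus strand, was lower in TG fat at 6 h. It stood at 9.66, 13.3 and 16.6 CPM in WT and at 7.09, 7.98 and 8.68 CPM in TG. All 6 TG libraries lay below all 6 WT libraries. The means were 13.3 ± 2.85 CPM (SD, n = 6) and 7.84 ± 0.617 CPM (SD, n = 6), a log2 difference of -0.76 (SE 0.14), or a fold of 0.591. At 1 h the values pointed the other way: 18.7, 24.1 and 26.8 CPM in WT and 24.1, 27.9 and 39.9 CPM in TG, with all 9 TG libraries above the WT mean. The log2 difference there was 0.40 (SE 0.12) and missed the threshold. In quadriceps the gene was below the count filter, with 137 counts over the WT and 73 over the TG libraries and values of 3.82, 9.50 and 16.4 CPM and 3.14, 5.04 and 10.8 CPM, and 8 of 10 TG libraries were below the WT mean. A non-coding gene on the same strand, Gm28151, lies within Slc39a10 and had 71, 248 and 468 counts in quadriceps, 1 h fat and 6 h fat, against 210, 978 and 1412 for Slc39a10.

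Slc39a14, at chr14:70303469-70351425 on the minus strand, encodes an importer of zinc, iron and manganese and was higher in TG fat at 6 h. It stood at 3.80, 5.54 and 9.05 CPM in WT and at 9.73, 11.2 and 41.6 CPM in TG, with no overlap. The means were 5.68 ± 1.90 CPM (SD, n = 6) and 16.3 ± 12.5 CPM (SD, n = 6), a log2 difference of 1.52 (SE 0.41). A single library, TG 5, set much of this size: the next TG value was 13.7 CPM, and without TG 5 the difference was 0.98. The call was lost when WT library 2, 3, 4, 5 or 6 was left out, or when genes of low count were kept in the fit, with differences of 1.43 to 1.55. At 1 h Slc39a14 stood at 2.42, 5.01 and 8.97 CPM in WT and at 5.24, 6.53 and 13.9 CPM in TG, a log2 difference of 0.49 (SE 0.24). The highest value belonged to TG library 3, and without the 9 libraries that carried transcripts of other organs the difference was 0.20. In quadriceps it stood at 8.92, 21.2 and 28.4 CPM in WT and at 14.9, 22.8 and 31.3 CPM in TG, a log2 difference of 0.22 (SE 0.17).

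**Figure D3:**
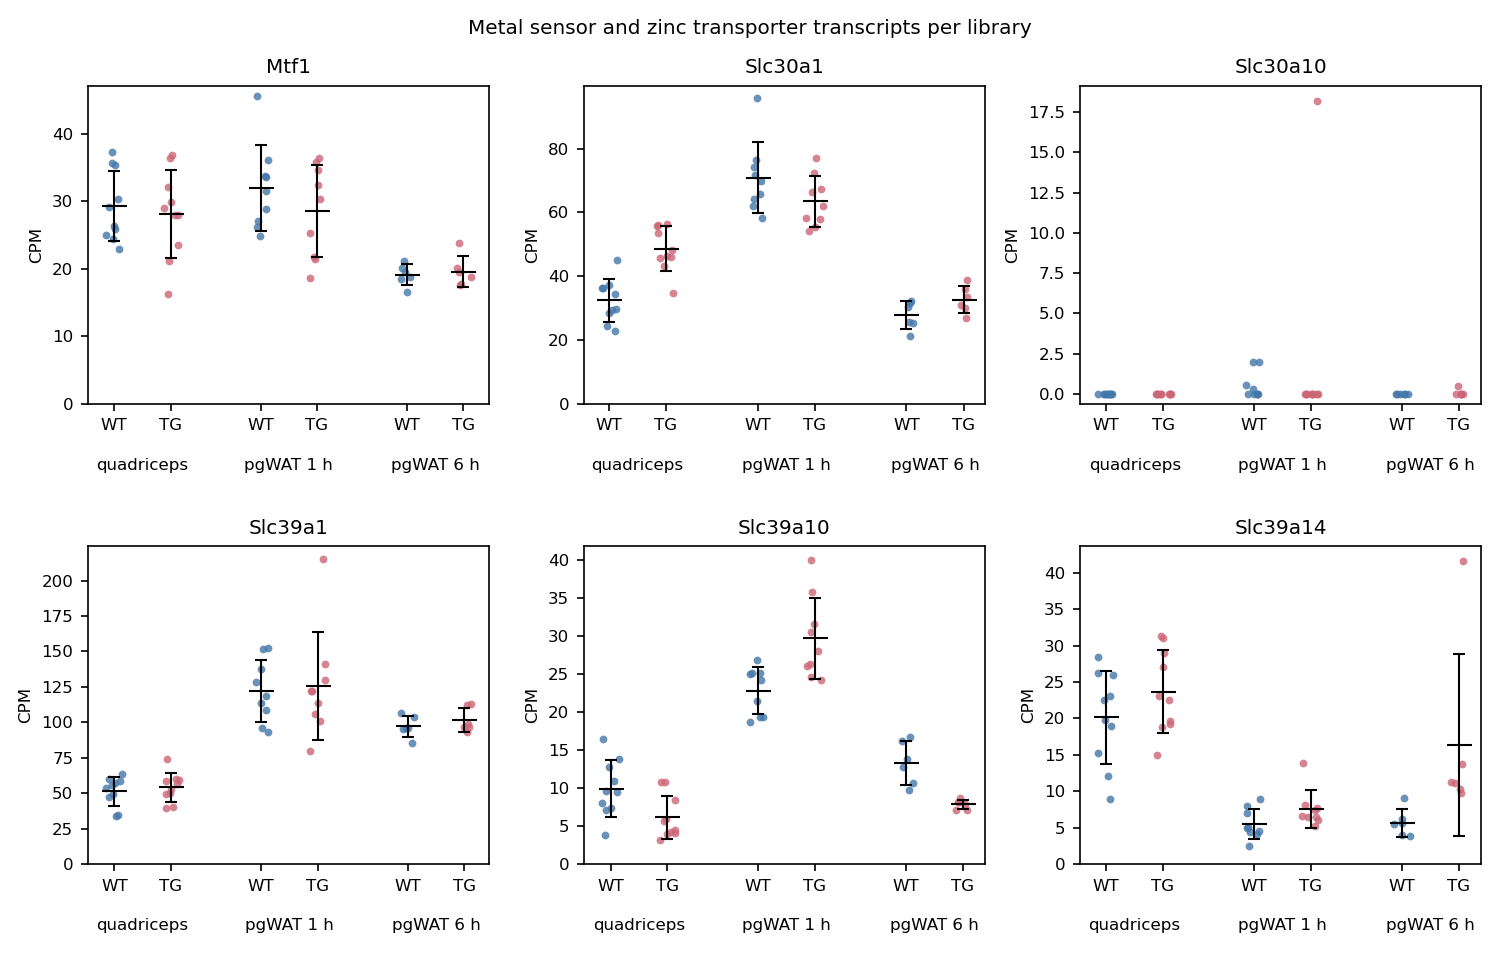
Mtf1, the exporters Slc30a1 and Slc30a10, and the importers Slc39a1, Slc39a10 and Slc39a14 in CPM, 1 point per library, with the mean and SD of each group (none for Slc30a10), WT in blue and TG in red. For Slc30a1 in quadriceps the ranges overlap, with 8 of 10 TG libraries above all WT libraries, and Slc39a10 and Slc39a14 separate in 6 h fat, in opposite directions.

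Across the 8 genes, 2 were called higher in TG quadriceps (Mt2 and Slc30a1) and 0 lower, where 1.09% of the tested genes were called higher and 0.942% lower. At 1 h 0 of the 7 tested genes were called with edgeR in either direction, 1 (Slc39a10) had an unadjusted p under the threshold, and DESeq2 also called 0. The background there was 0.0541% higher and 0.018% lower. At 6 h 3 were called higher (Mt1, Mt2 and Slc39a14) and 1 lower (Slc39a10), where 6.88% of the tested genes were called higher and 7.54% lower. The genes were chosen on these contrasts, so nothing is read from the counts. Mt2 was called in both quadriceps and 6 h fat. Muscle fibre markers also differed in 6 h fat, from 24.2 to 51.9 CPM in WT and from 62.1 to 123 CPM in TG, and 1 of the 3 tested was called higher. The inducible heat shock genes summed to 36.6 to 55.4 CPM in WT and 51.9 to 86.5 CPM in TG, highest in TG library 5, with 1 of the 3 called higher and 1 lower. Of the 6 adipocyte markers 1 was called higher, and of the 6 mesothelial markers 1 was called lower. Their part in the metallothionein values was not tested.

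**Figure D4:**
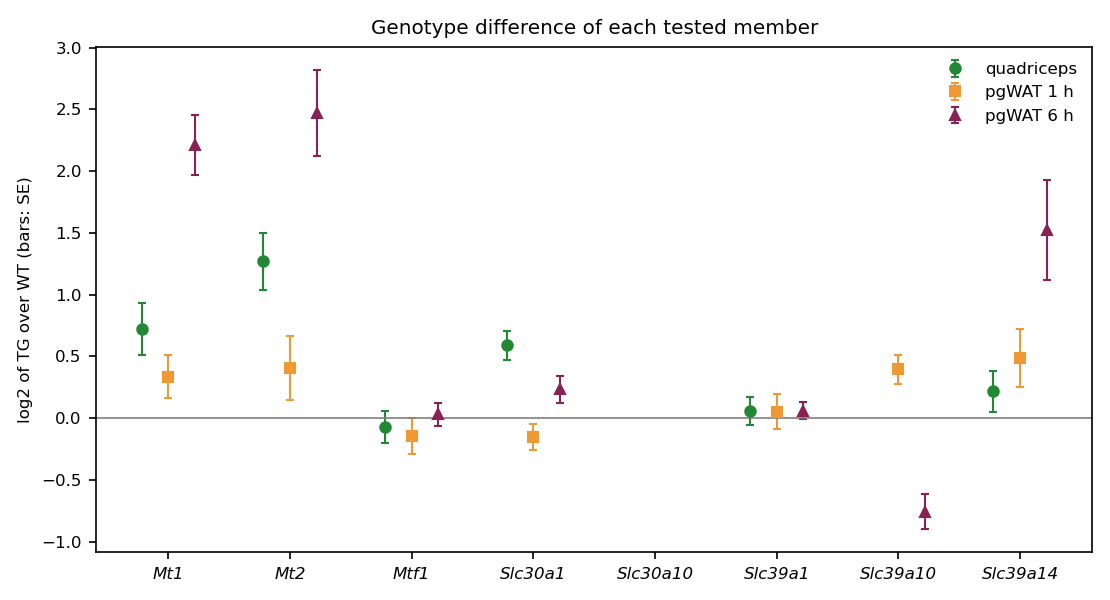
Fitted log2 difference of TG over WT with its SE for each gene that passed the count filter, in quadriceps (green circles), fat at 1 h (orange squares) and fat at 6 h (purple triangles). The metallothioneins are highest at 6 h (2.21 and 2.47), Mtf1 and Slc39a1 lie near 0 in all sets, and Slc39a10 lies above 0 at 1 h (0.40) and below it at 6 h (-0.76).

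Among the other zinc transporters and metallothioneins no gene was called. Of 21 other members of the Slc30, Slc39 and metallothionein families, 10, 11 and 12 were tested in quadriceps, 1 h fat and 6 h fat, and both edgeR and DESeq2 called 0 in each. Over all genes tested, edgeR called 1.09% higher and 0.942% lower in quadriceps, 0.0541% and 0.018% at 1 h, and 6.88% and 7.54% at 6 h, and nothing particular to this list is read from its counts. With edgeR, at an unadjusted p under the threshold there were 1, 0 and 1. The median log2 difference of these genes was 0.05, 0.02 and 0.06, beside -0.00340, 0.00864 and 0.00155 over all genes tested. Mt4 had 0 counts in 6 h fat. Mt3, the metallothionein known from brain, had 23 counts summed over the 12 libraries of 6 h fat and was not tested in any set. Its means there were 0.0310 ± 0.0480 CPM in WT and 0.312 ± 0.151 CPM in TG (SD, n = 6 each). In that set 6 of 6 TG libraries were above the WT mean. The WT and TG means were 0.128 ± 0.305 and 0.331 ± 0.428 CPM in quadriceps (SD, n = 10 each). At 1 h they were 1.78 ± 3.99 and 1.17 ± 2.36 CPM (SD, n = 9 each), and 2 of 9 TG libraries exceeded the WT mean. These SDs at 1 h are larger than the means, so a few libraries carry them. All of these means lie near or under the limit of 3 counts per library.

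Genes that handle copper, iron and manganese, or are otherwise linked to MTF-1, were compared as lists chosen by function, with earlier results of these libraries known, so that the p-values below, adjusted over all genes tested, are not independent evidence. In quadriceps 0 of the 23 tested genes of these lists were called with edgeR or DESeq2 and 5 had an unadjusted p under the threshold. At 1 h 0 of 25 were called by either tool and 0 had such a p. At 6 h edgeR called 5 of 25, 3 higher and 2 lower in TG, beside 6.88% of all genes tested there called higher and 7.54% lower, and nothing particular to the lists is read from this count. Ndrg1, a stress-induced gene of the MTF-1 list, had means of 114 ± 13.9 CPM and 168 ± 30.6 CPM (SD, n = 6 each) and was higher in 5 of 6 TG libraries than the WT mean, with a log2 difference of 0.55 (SE 0.12, edgeR adjusted p = 0.00684). The copper genes Slc31a1, an importer of copper, and Atp7a, a copper-pumping ATPase, were higher by 0.35 (SE 0.10, edgeR adjusted p = 0.0220) and 0.31 (SE 0.09, adjusted p = 0.0332), each in 6 of 6 TG libraries. Of the iron genes, Steap3, a reductase of endosomal iron, was lower, with a log2 difference of -0.57 (SE 0.11, edgeR adjusted p = 0.00167), and so was Aco1, the iron-sensing aconitase, at -0.35 (SE 0.10, adjusted p = 0.0302). In 0 of 6 TG libraries did either gene exceed the WT mean. Calls of these lists fell to 3 without WT library 1, WT 2, WT 6 or TG 2. The call of Slc31a1 was lost without WT 1, that of Atp7a without WT 1, 2, 4 or 6 or TG 2 or 3, and that of Aco1 without WT 2 or 6 or TG 1, 2, 4 or 5.

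Between the tissues, WT libraries of quadriceps and of 1 h fat were fitted together, which uses no TG library. All 7 tested genes passed the threshold, where 40.2% of 10319 genes were higher in quadriceps and 40.6% lower. Slc39a14 differed most, at 26.3 ± 8.26 CPM (SD, n = 10) in quadriceps and 4.08 ± 1.51 CPM (SD, n = 9) in fat, a log2 difference of 2.59 (SE 0.22, edgeR adjusted p = 2.15e-11), and every quadriceps library lay above every fat library. Mt1 (1.22, SE 0.25, edgeR adjusted p = 2.11e-04), Mt2 (1.18, SE 0.33, adjusted p = 0.00291) and Mtf1 (0.59, SE 0.13, adjusted p = 1.89e-04) were also higher in quadriceps. Slc30a1 (-0.42, SE 0.12, edgeR adjusted p = 0.00284), Slc39a1 (-0.51, SE 0.12, adjusted p = 2.42e-04) and Slc39a10 (-0.44, SE 0.17, adjusted p = 0.0234) were lower. With library totals alone the median of all genes moved from -0.003 to -0.77, Mt1 and Mt2 fell to 0.43 and 0.40 and lost their calls, and Mtf1 turned to -0.18. With TG in place of WT libraries, Slc30a1 turned to 0.26 and Slc39a10 moved to -1.64, and with no count filter Slc39a10 (-0.35) lost its call. The quadriceps came from clamped mice and the fat did not, and the time after CNO was 1 h for the fat and is not known for the quadriceps. Tissue, clamp and time therefore cannot be told apart. Of the 9 WT fat libraries, 3 stayed within the limits set above for liver and duct transcripts.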

How the data were processed

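The authors deposited raw counts per gene in 3 tables, of 55419, 55419 and 55522 rows, per the labels' protocols from QuantSeq 3′ mRNA libraries. Tools named per the submitters' processing notes are STAR 2.7.10, UMI-tools 1.1.2, bcl2fastq 2.20.0.422 and cutadapt 1.18, with GRCm39 and GRCm38 as builds; which build belongs to which table, and the counting settings, are not given in the sources used here. Rows that name no gene (5, 5 and 121) were left out; gene rows held 74.9%, 65.3% and 99.8% of the counts. Gene symbols came from the 6 h table through the gene identifier (52338 of 55414 matched).

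Each set was fitted on its own with edgeR 4.0.16 in R 4.3.3 (filterByExpr, TMM scaling, robust quasi-likelihood test, Benjamini-Hochberg adjustment over all genes tested, threshold 0.05). CPM use TMM-scaled library sizes, and log2 CPM a prior count of 2. Alternatives were DESeq2 1.42.0, library totals, no count filter, a replicate block and leaving out each library, or WT 2 and WT 10 in quadriceps. Leaving out 9 libraries at 1 h, or TG 2 and TG 5 at 6 h, was added after seeing the data. The fit was also run on simulated counts with the same setting of spread for every gene and large changes only. That run checks the code and not how well smaller differences, or genes of wide spread, are called. Permutation p-values were exact below 10 libraries and otherwise from 100000 permutations. The 8 genes and the lists were chosen with earlier results of these data known. Of the lists, genes past the threshold were named, up to 5 per set; the 3 genes most like Mt1 and Mt2 were ranked by Pearson's r among genes with a mean of at least 5 CPM. Coordinates are GENCODE's on GRCm38. Promoter sequences are RefSeq's and matched 7 of the 8 genes.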

Additional observations from a re-analysis of the deposited data

Results flagged for a closer look

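Among groups of 6 to 10 libraries, 7 of 45 looked at had 1 library far from the others, by its gap to the nearest library over the range. The cut-offs are made for normal values in separate groups, and these groups share libraries, so 7 is not set against a chance rate. Both flags of Slc30a10 arose because every other library of the group had 0 counts. At 1 h the flagged libraries were TG library 5 for Mt1 (609 CPM), WT library 9 for Slc30a1 (95.9 CPM), TG library 7 for Slc39a1 (215 CPM), and TG library 3 for both Slc30a10 (18.2 CPM, 34 counts) and Slc39a14 (13.9 CPM). TG library 3 also held 9428 CPM of liver transcripts, and the part of these in its Slc30a10 and Slc39a14 values was not tested. At 6 h, TG library 2 stood apart for Slc30a10 (0.466 CPM, 5 counts) and held 1458 CPM of liver transcripts. TG library 5 stood apart for Slc39a14 (41.6 CPM) in the same set, while its liver markers, at 57.1 CPM, were within the range of the WT libraries. Its summed erythroid (8377 CPM), smooth muscle (586 CPM) and endothelial (884 CPM) markers were the highest of the set. The highest WT sums were 5354, 392 and 727 CPM. Its adipocyte, macrophage, neutrophil and fibroblast sums were within the WT range. The part of these in its Slc39a14 value was not tested.

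Slc39a10 pointed in opposite directions at the 2 times in fat, with a log2 difference of TG over WT of 0.40 at 1 h and -0.76 at 6 h. Every TG library was above the WT mean at 1 h and every one was below it at 6 h. The difference between the times was not tested, and time, library kit and table coincide, so they cannot be told apart.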

How the results depend on the processing

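The 470 alternative log2 differences between genotypes, of the genes that had a fit, all moved by less than 1 SD between libraries. Most left out a single library, which can shift a group mean only a little, so this limit was wide. Within it, Slc39a14 at 6 h went from 1.52 to 0.98 and Mtf1 at 1 h from -0.14 to -0.43. Stability is therefore not read from it for these genes. The numbers of these genes called stayed at 2 to 3 in quadriceps, 0 in 1 h fat and 3 to 4 in 6 h fat over all alternatives run, single libraries left out included. In the metal-handling lists of quadriceps, where the count was 0, no filter on low counts gave 1 call, and leaving out single libraries gave 0 to 1 (1 without WT 6, TG 2 or TG 5). In 6 h fat, where the count was 5, library totals gave 3, leaving out TG 2 and TG 5 gave 3, and leaving out single libraries gave 3 to 6 (3 without WT 1, WT 2, WT 6 or TG 2); the largest adjusted p over these alternatives was 0.0857 for Slc31a1, 0.121 for Atp7a and 0.135 for Aco1. Other family genes at 6 h gave 0 to 1 calls with single libraries left out (1 without WT 2). Between WT tissues, library totals left 4 of 7 genes called and turned Mtf1 to -0.18, and TG in place of WT libraries turned Slc30a1 to 0.26 and moved Slc39a10 to -1.64 (-1.20 with library totals; -0.35 and no longer called with no count filter). The causes were not tested. Slc30a10 in every set and Slc39a10 in quadriceps were below the count filter and have no fitted genotype difference.

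Replicate numbers are shared between the genotypes, but same-numbered libraries did not deviate together: their r ran from -0.18 to 0.20 in quadriceps, -0.18 to 0.37 at 1 h and -0.15 to 0.15 at 6 h. A fit with the number as a block called Mt1 in quadriceps (0.80) and 1 metal-handling gene there, and lost Atp7a at 6 h (adjusted p = 0.0511).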

Other observations

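In WT libraries Mt2 varied more between libraries than nearly all other genes. The SD of log2 CPM of Mt2 was 0.67 in WT and 0.30 in TG quadriceps, where 98.4% and 65.1% of genes had a smaller one. At 1 h it was 0.76 in WT (97.0% of genes lower) and 0.35 in TG (61.7%), and in 6 h fat 0.77 (99.2%) and 0.33 (86.1%). Mt1 gave 0.59 and 0.28 in quadriceps, 0.48 and 0.27 at 1 h, and 0.51 and 0.32 at 6 h. The difference in spread between genotypes was not tested.

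The genes whose library-to-library pattern was most like the mean of Mt1 and Mt2, centred within genotype, were Midn (r = 0.84), Ahnak (0.82) and Tmem177 (0.78) over the 20 quadriceps libraries. At 1 h they were H2-Eb1 (0.82), Pmaip1 (0.82) and Ccl6 (0.81) over 18 libraries, and in 6 h fat Gar1 (0.89), Sdc4 (0.88) and Rnps1 (0.85) over 12. They head a ranking of 8068, 11080 and 10860 genes measured in the same libraries and are given as a description.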
